A study of Mus musculus with 3 samples.

Results

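The secreted Wnt antagonists are proteins that cells release to hold back Wnt signals. The 9 genes described here were found by symbol among the 32285 genes of the count matrices, and all 9 were present. They are the secreted Frizzled-related genes Sfrp1, Sfrp2, Sfrp4, Sfrp5 and Frzb, the Wnt inhibitory factor Wif1, and the Dickkopf genes Dkk1, Dkk2 and Dkk3. Sfrp2 is the gene that the study deleted.

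Tumour tissue from mice was profiled by droplet single-cell RNA sequencing in 3 libraries, 1 per group. All mice received the Lewis lung carcinoma line LLC1-sgLkb1, which has, per the labels, a knockdown of the tumour suppressor kinase LKB1, first through the tail vein to seed the lung and 3 weeks later under the skin. The Flox+ICI library came from mice with a floxed Sfrp2 gene that were given an immune checkpoint inhibitor alone, and the Flox+RI library from floxed mice given the inhibitor with radiation of the subcutaneous tumour. The library labelled CKO+RI had the same 2 treatments in hosts in which Col1a2 drives the loss of Sfrp2, so that the deletion is aimed at cells with Col1a2 promoter activity such as fibroblasts, and the tumour cells do not carry it. The inhibitor, the Cre allele, the number or age of the mice, and which lesion became each library are not given here by the labels. Since each group had 1 library, no difference below has a replicate check, and every interval covers counting error only.

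Wnt ligands are secreted proteins that bind Frizzled receptors and the co-receptors LRP5 and LRP6, which stabilises beta-catenin in the receiving cell. The Frizzled-related proteins and WIF1 bind the Wnt ligands themselves, whereas DKK1 and DKK2 bind LRP5 and LRP6. In lung and tumour stroma these genes are known mainly as products of fibroblasts and other mesenchymal cells.

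The 250 bases before the start of 2 of the genes are shown, Sfrp2 because it is the targeted gene and Dkk2 because it gave most of the counts. They come from RefSeq on GRCm38.p6, and 6 of the 9 genes were matched in that table. Sfrp1, Sfrp4 and Dkk3 were not matched. Both stretches are on the plus strand, at chr3:83766071-83766320 for Sfrp2 and chr3:132085042-132085291 for Dkk2. Capitals mark a TATA box, searched as TATAAA on both strands.
Sfrp2: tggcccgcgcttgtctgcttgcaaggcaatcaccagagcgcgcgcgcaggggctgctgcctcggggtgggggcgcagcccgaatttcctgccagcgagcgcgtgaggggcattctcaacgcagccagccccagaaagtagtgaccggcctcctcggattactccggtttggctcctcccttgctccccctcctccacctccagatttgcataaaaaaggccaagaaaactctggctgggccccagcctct
Dkk2: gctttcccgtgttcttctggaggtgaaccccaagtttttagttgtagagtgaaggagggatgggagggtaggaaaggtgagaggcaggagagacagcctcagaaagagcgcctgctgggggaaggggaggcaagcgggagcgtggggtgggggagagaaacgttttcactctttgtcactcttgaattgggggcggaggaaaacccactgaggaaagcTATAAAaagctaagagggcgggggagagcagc
The Dkk2 stretch held TATAAA, 32 bases before the start, and the Sfrp2 stretch did not. This motif was in 12.4% of the 32851 upstream stretches of 250 bases in the table. The letters ATCAAAG, a TCF/LEF site searched on both strands, were in neither stretch and in 3.2% of all. GC content was 63.6% for Sfrp2, with 16 CpG, and 55.6% for Dkk2, with 7 CpG. These matches describe the letters only.

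In the GENCODE annotation of GRCm38, Sfrp2 (ENSMUSG00000027996) spans chr3:83766321-83774316 in 3 exons, and Dkk2 (ENSMUSG00000028031) spans chr3:132085292-132180304 in 4 exons. Sfrp1 (ENSMUSG00000031548) lies at chr8:23411502-23449632 with 3 exons, and Dkk3 (ENSMUSG00000030772) at chr7:112116017-112159057 with 8. The other members lie on chromosomes 2 (Frzb), 10 (Wif1), 13 (Sfrp4) and 19 (Sfrp5 and Dkk1).

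Depth was 75543561 UMIs (unique transcript counts) for Flox+ICI, 101840883 for Flox+RI and 161250286 for the library labelled CKO+RI. Filtering left 9777, 11706 and 8383 cells, with a median of 3011, 2599 and 13515 UMIs, so shares of cells with a UMI were also taken from cells thinned to 2000 UMIs. Between 31 and 37 cell barcodes were shared by any 2 libraries, at most 0.366% of the smaller one, and 0 were shared by all 3. Each cell took a class from fixed marker genes. The LLC tumour class held 2640, 3650 and 3763 cells, the fibroblast class 181, 37 and 103, and the mesothelial class (the lining of the lung surface) 2, 7 and 26. Ungated cells made up 18.8%, 32.1% and 20.3%. Levels are given as UMIs of a gene per 1000000 UMIs of the class (CPM). Where 3 values follow each other without names, they are those of Flox+ICI, of Flox+RI and then of the library labelled CKO+RI. Levels are not corrected for gene length, so they are compared between cells and libraries but not between genes.

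The 9 genes divided by cell class. Of the kept UMIs of Dkk2, 83.1% were in tumour-gated cells and 15.4% in ungated ones. Fibroblast-gated cells held 78.5% of those of Sfrp1, 49.1% of Dkk3 and 66.7% of Sfrp4. Mesothelial-gated cells held 55.4% of the Sfrp2 UMIs, and airway epithelial-gated cells 52.2% of those of Wif1. Frzb was mostly in tumour-gated cells, at 75.9%, but with only 133 UMIs in all against 19400 of Dkk2.

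**Figure D1:**
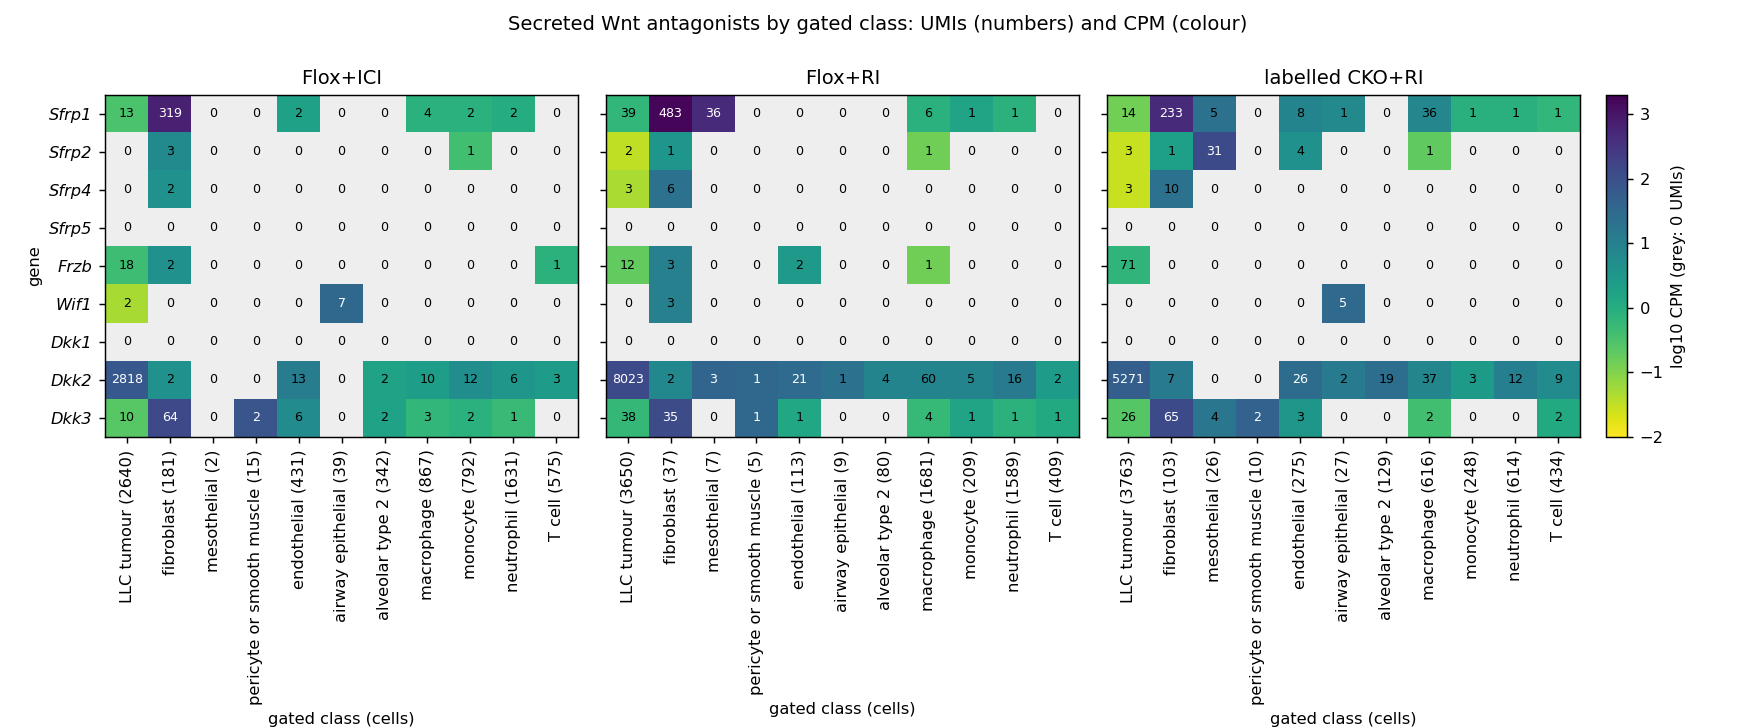
UMIs (numbers) and CPM (colour, log10 scale, grey for 0 UMIs) of the 9 genes (rows) in 11 gated classes (columns, with their cells) of the 3 libraries. The largest Dkk2 counts are in the LLC tumour column (2818, 8023 and 5271 UMIs) and the largest Sfrp1 counts in the fibroblast column (319, 483 and 233).

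Sfrp2, the targeted gene, did not separate the libraries in the direction of their labels. Over all kept cells it had 6 UMIs in Flox+ICI, 8 in Flox+RI, but 42 in the library labelled CKO+RI. In CPM, that library stood at 3.16 times Flox+RI (interval 1.46 to 7.79, n = 1 library each), and at 16.2 times when levels were averaged over cells. The count was thus highest where the deletion was labelled. Which part of the gene was deleted, and whether the counted reads lie inside it, is not stated in the labels, so these counts do not check the deletion, and the name "labelled CKO+RI" is used throughout.

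In fibroblast-gated cells, the target of the deletion, Sfrp2 had 3 UMIs (6.19 CPM), 1 UMI (3.34 CPM) and 1 UMI (2.0 CPM). With 1 UMI in each of the last 2, their intervals ran from 0.0846 to 18.6 and from 0.0505 to 11.1 CPM. A difference in fibroblasts was therefore not detectable at this depth.

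By marker gates, the excess in the library labelled CKO+RI came from another class. Mesothelial-gated cells there held 31 of its 42 kept UMIs, in 11 of 26 cells and with at most 8 in 1 cell. This was 129 CPM (87.9 to 184). In Flox+RI, 0 UMIs were found in 7 such cells, which allows up to 36.6 CPM, and in Flox+ICI 0 UMIs in 2 cells, which allows up to 397 CPM. The interval of the library labelled CKO+RI thus lay above that of Flox+RI (0 to 45.0), while the 2 cells of Flox+ICI could not show a level of that size.

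These mesothelial-gated cells carried a median of 9 of the 10 mesothelial markers and 57.9 mesothelial marker UMIs per 10000, beside 34.7 of the fibroblast markers. In Flox+RI the fibroblast markers were above the mesothelial ones, at 46.5 against 31.0 per 10000, so that class was less clean there. The mesothelial cells formed no cluster of their own. Among the clusters, Sfrp2 was highest in the 1 named fibroblast, at 17.1 CPM with the libraries summed, and next in the endothelial cluster, at 1.36 CPM. The split between mesothelial cells and fibroblasts therefore rests on the marker gates. Mesothelial-gated cells were 0.0205%, 0.0598% and 0.310% of all kept cells, and the part of that share in the higher Sfrp2 count was not tested. In neutrophils, which serve as the background of free RNA, Sfrp2 had 0 UMIs in all 3 libraries.

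A further 18 Sfrp2 UMIs of Flox+ICI were in barcodes removed as likely doublets. Of these, 15 were in 1 barcode of 6272 UMIs that was gated as alveolar type 2 and also held 27 UMIs of Sfrp1. Including every barcode, the counts were 24, 12 and 46, out of 75543561, 101840883 and 161250286 UMIs. The library labelled CKO+RI thus still had the highest count, but per UMI Flox+ICI was then the highest and Flox+RI the lowest.

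**Figure D2:**
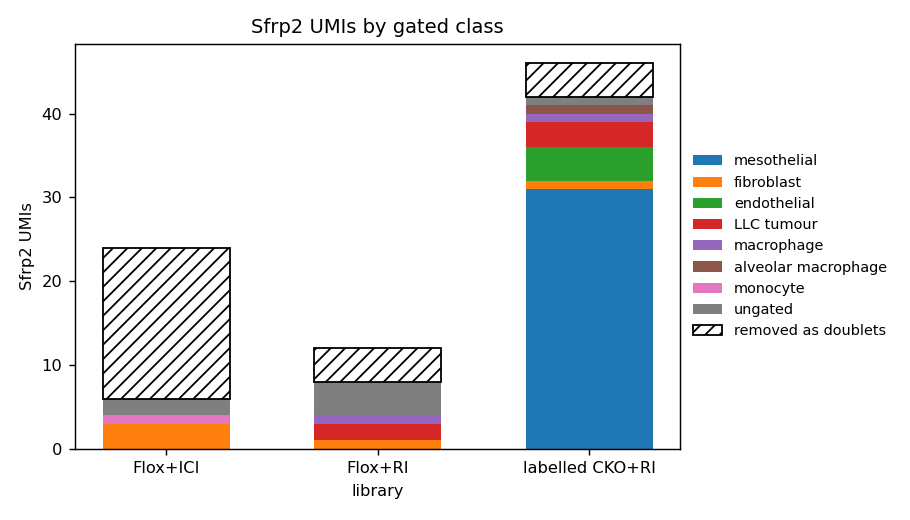
Sfrp2 UMIs (vertical axis, from 0) in each library, coloured by gated class, with barcodes removed as doublets hatched. Mesothelial-gated cells make up 31 of the 42 kept UMIs of the library labelled CKO+RI, and the hatched part is 18 of 24 in Flox+ICI.

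Sfrp1, a Frizzled-related protein of mesenchymal cells, was a fibroblast gene in all 3 libraries. Its level in fibroblast-gated cells was 659 CPM (588 to 735) in Flox+ICI, 1613 CPM (1473 to 1764) in Flox+RI, against 465 CPM (407 to 529) in the library labelled CKO+RI. It was found in 31.5%, 81.1% and 41.7% of these cells, and in neutrophils, at a median depth of 730 to 1846 UMIs, its level was 0.789 to 1.03 CPM. Fibroblasts of Flox+RI thus stood highest, with intervals that did not overlap those of the other 2 libraries. With classes from clusters the levels were 509.9, 865.3 and 249.3 CPM, and averaged over cells they were 348, 1488 and 272 CPM, so Flox+RI was the highest in both while the sizes moved. The Flox+RI class had 37 cells, below the 50 set for a ratio, so none is given for Sfrp1.

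Depth and kind of fibroblast moved with this. The median was 7431 UMIs per fibroblast in Flox+RI against 2127 for Flox+ICI and 3675 for the library labelled CKO+RI. At 2000 UMIs per cell the shares with Sfrp1 were 42.6% of 101 cells, 75.8% of 33 and 35.4% of 82, so Flox+RI remained highest at equal depth. Contractile fibroblasts, marked by Acta2 and Tagln, were 25 of the 37 cells of Flox+RI but 8 of 181 and 5 of 103 in the other libraries. Adventitial fibroblasts, marked by Pi16 and Cd34, were 104, 4 and 60, and alveolar fibroblasts, marked by Tcf21 and Npnt, 44, 1 and 25.

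Within the contractile kind, Sfrp1 stood at 568 CPM (347 to 878), 1557 CPM (1389 to 1740) and 188 CPM (75.4 to 387). Among adventitial cells it was 633 CPM (537 to 741), 853 CPM (552 to 1260) and 593 CPM (504 to 693). The gap was therefore also present inside the contractile kind, over 8, 25 and 5 cells, whereas in the adventitial kind the intervals overlapped. The kinds of fibroblast were called from marker lists made with these results known.

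Xist, the RNA of the inactive X chromosome, marked host cells, at 336 CPM in the endothelial cluster against 2.54 CPM in tumour cluster 1. Fibroblasts with an Xist UMI had 878 CPM of Sfrp1 (103 cells), 1647 CPM (25) and 518 CPM (67), and those without had 167 CPM (78), 1505 CPM (12) and 228 CPM (36). Flox+RI was the highest on both sides of that split, and cells without an Xist UMI were shallower in each library.

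A few cells held much of the Sfrp1 count. The fibroblast with the most had 58, 68 and 64 UMIs. All 36 UMIs of macrophage-gated cells in the library labelled CKO+RI were in 1 cell, and 35 of the 36 mesothelial UMIs of Flox+RI were in 1 cell. Those classes therefore show 1 cell each and not a class level.

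Dkk3, the divergent Dickkopf family member, shared the fibroblasts with Sfrp1 but not the difference between libraries. Its level there was 132 CPM (102 to 169) in Flox+ICI, 117 CPM (81.4 to 163) in Flox+RI, beside 130 CPM (100.1 to 165) in the library labelled CKO+RI. The 3 intervals overlapped. The share of cells with a UMI was 26.0%, 56.8% and 36.9%, but 23.8%, 15.2% and 22.0% at 2000 UMIs per cell, so Flox+RI was not the highest at equal depth. Both genes were found together in 21 of 181, 19 of 37 and 20 of 103 fibroblasts. In pericyte or smooth muscle cells Dkk3 had 1 or 2 UMIs per library, too few to give an order.

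**Figure D3:**
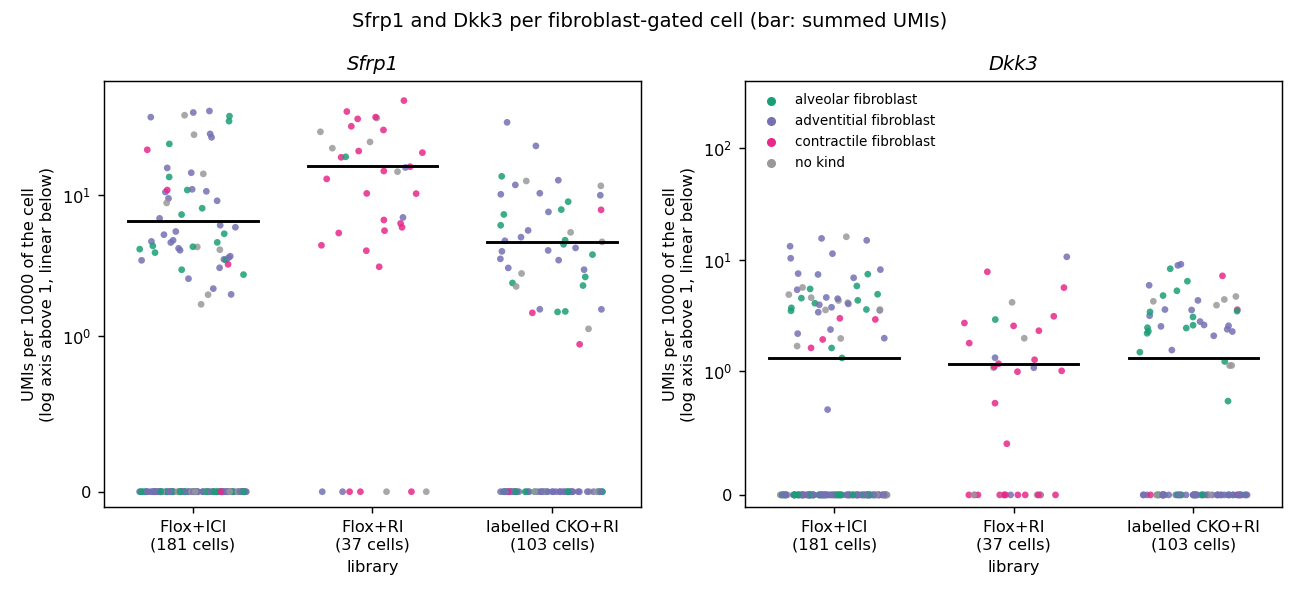
Sfrp1 (left) and Dkk3 (right) in each fibroblast-gated cell, as UMIs per 10000 of the cell on an axis that is logarithmic above 1 and linear below, by library and coloured by fibroblast kind. The black line is the level from summed UMIs, highest for Sfrp1 in Flox+RI (1613 CPM) and near equal for Dkk3 (117 to 132 CPM).

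Sfrp4, another Frizzled-related gene, was rare and kept to adventitial fibroblasts among the kinds. Fibroblast-gated cells held 2, 6 and 10 UMIs, and all 18 were in cells of the adventitial kind. The 6 of Flox+RI were in 1 cell, whereas the 10 were in 5 cells. Over all kept cells the counts were 2, 9 and 16, a ratio of levels of 1.07 (0.445 to 2.74) for the library labelled CKO+RI over Flox+RI.

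Wif1, whose product binds Wnt ligands, had 12 of its 23 kept UMIs in airway epithelial-gated cells. It had 7 UMIs in 5 of 39 airway epithelial cells of Flox+ICI (32.4 CPM, 13.04 to 66.8) and 5 UMIs in 4 of 27 of the library labelled CKO+RI (31.4 CPM, 10.2 to 73.3). Flox+RI had 0 UMIs in 9 such cells, which allows up to 63.2 CPM, so a difference was not detectable there. The 3 Wif1 UMIs of Flox+RI were all in 1 fibroblast. Among the clusters, which gave no airway class, Wif1 was at 4.50 CPM in the alveolar type 2 cluster and 3.43 CPM in the fibroblast cluster, with the libraries summed.

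Sfrp5 and Dkk1 were close to or at 0. Sfrp5 had 1 kept UMI, in an ungated cell of Flox+ICI. Dkk1, the best known LRP5 and LRP6 antagonist, had 0 UMIs in every barcode, which in the kept cells allows up to 0.0457, 0.0346 and 0.0208 CPM.

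Dkk2, the other LRP5 and LRP6 binder of the list, was a tumour cell gene here. Its level in tumour-gated cells was 68.7 CPM (66.2 to 71.2) in Flox+ICI, 126 CPM (123 to 129) in Flox+RI, against 49.8 CPM (48.4 to 51.1) in the library labelled CKO+RI. Neutrophils of the same libraries had 3.09, 12.6 and 10.1 CPM, from single UMIs. The tumour level thus lay well above that of neutrophils in each library, and it was highest in Flox+RI.

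The share of tumour-gated cells with a Dkk2 UMI was 27.7%, 51.6% and 26.2%, at a median depth of 14963, 16304 and 26346 UMIs. In neutrophils it was 0.368%, 1.01% and 1.95%, at 1063, 730 and 1846 UMIs. At 2000 UMIs per cell the tumour shares were 8.34%, 18.8% and 6.37%. The order of the libraries was therefore the same at equal depth.

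The library labelled CKO+RI stood at 0.394 times Flox+RI (0.381 to 0.408), or 2.54-fold lower, and the level in Flox+RI was 1.84 times that in Flox+ICI (1.76 to 1.92). Both comparisons share the Flox+RI library, so they are not independent. Wnt7b, a ligand in the same tumour cells, stood at 42.2, 83.8 and 41.7 CPM.

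Dkk2 was uneven among tumour cells. Of the tumour-gated cells, 72.4%, 48.4% and 73.8% had 0 UMIs, while the highest cell had 69, 87 and 131. Cells with at least 5 UMIs were 6.78%, 13.7% and 7.87% of the class and held 62.9%, 67.2% and 75.9% of its Dkk2 UMIs. A minority of cells therefore carried most of the count in each library.

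The tumour clusters, made without the 9 genes, differed in Dkk2, and each library was made up of different ones. The libraries were clustered together without correction between them. Flox+ICI gave 2021 of the 2116 cells of cluster 1, and Flox+RI 3627 of the 3799 of cluster 3. The library labelled CKO+RI gave 2572 of the 3006 cells of cluster 12 and 1908 of the 2165 of cluster 13. Library and tumour state therefore cannot be told apart here. Cluster 1, led by Gbp2 and Tubb3, made up 61.5% of the tumour-gated cells of Flox+ICI. Cluster 3, led by Il1rl1 and Il33, made up 88.5% of those of Flox+RI. In the library labelled CKO+RI, cluster 12, led by histone genes, was 50.7% and cluster 13, led by Lum and Dcn, 42.0%. Cluster 13 was left unnamed by the cluster rules, since its leading genes held fibroblast markers, but 83.6% of its cells were gated as tumour and Xist was at 2.05 CPM.

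Over all cells of a cluster, gated as tumour or not, Dkk2 in cluster 1 stood at 20.4 CPM in Flox+ICI, 202 CPM in Flox+RI (29 cells with a median of 1364 UMIs), against 22.5 CPM in the library labelled CKO+RI. Cluster 2, led by Pdpn, had 162, 295 and 74.9 CPM, and in Flox+ICI it held 70.9% of the Dkk2 UMIs of tumour-gated cells in 28.8% of the cells. Cluster 3 had 138 CPM (118 to 161), 125 CPM (122 to 128) and 114 CPM (103 to 126). The libraries lay close together in cluster 3 and apart in cluster 2. In cluster 1 the intervals of Flox+ICI (18.8 to 22.0) and the library labelled CKO+RI (15.4 to 31.7) overlapped, and only the few shallow cells of Flox+RI stood apart.

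Cluster 12 had 25.2, 64.4 and 23.4 CPM. Cluster 13 had 144 CPM (125 to 165), 120.5 CPM (106 to 137) and 82.9 CPM (80.5 to 85.4), and it held 69.2% of the tumour Dkk2 UMIs of the library labelled CKO+RI. The level in that library was thus below Flox+RI in clusters 1, 2, 12 and 13, and the intervals touched only in cluster 3. The Flox+RI cells of cluster 2 (161 cells, median 4366 UMIs) and cluster 12 (278 cells, median 1198 UMIs) were shallower than those of the library labelled CKO+RI (8152 and 25218 UMIs), and 168 of the 278 had under 2000 UMIs. The part of this depth in the higher values was not tested. How much of the difference over all tumour-gated cells goes with cluster makeup was not tested.

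**Figure D4:**
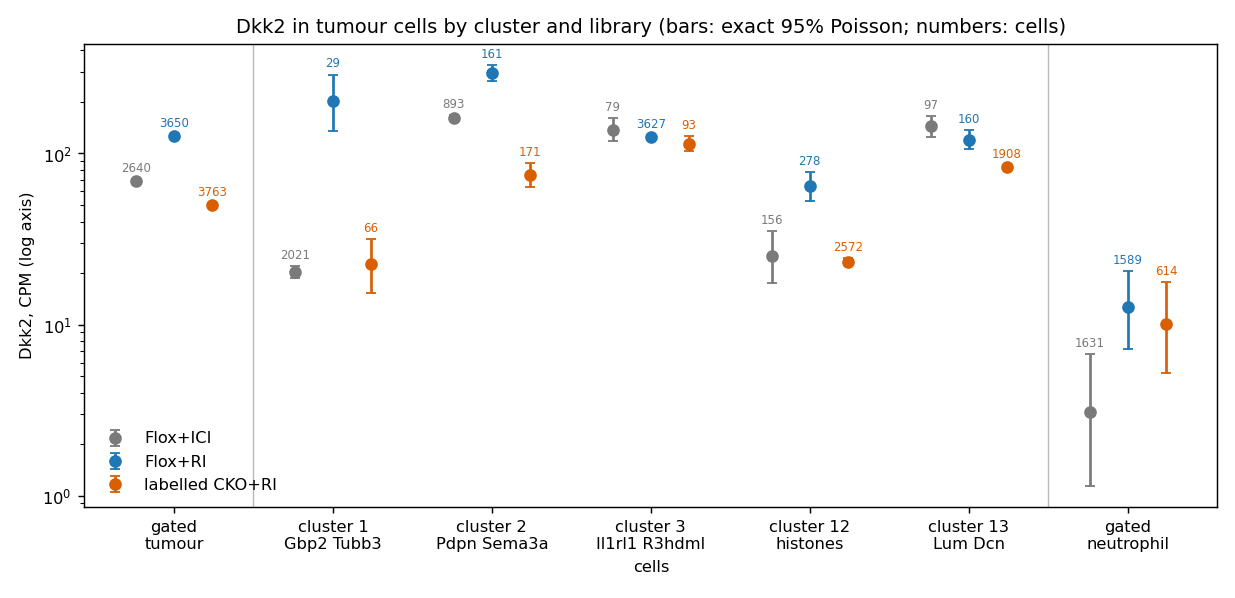
Dkk2 level (CPM, log axis) in tumour-gated cells, in 5 tumour clusters and in neutrophils of each library, with exact 95% Poisson intervals as bars and cell numbers beside the points. In cluster 3 the 3 libraries lie between 114 and 138 CPM, while in cluster 2 Flox+RI is at 295 and the library labelled CKO+RI at 74.9 CPM.

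In the other named classes described here, Dkk2 was below the tumour level and often rested on few cells. Alveolar type 2 cells had 2, 4 and 19 UMIs, and 16 of the 19 were in 1 cell. Endothelial cells had 11.8, 28.2 and 26.8 CPM, with up to 6, 10 and 7 UMIs in 1 cell. Fibroblasts had 2, 2 and 7 UMIs. Ungated cells were different, with 512, 1023 and 1455 Dkk2 UMIs at 50.2, 90.6 and 57.3 CPM. In the library labelled CKO+RI this was above the tumour-gated level and made up 21.2% of the kept Dkk2 UMIs. Whether these are tumour cells that missed the gate was not tested. With the libraries summed, 2 clusters with names of host cells were near the tumour-gated level of that library. The erythroid cluster was at 49.1 CPM (182 of 237 cells from that library), although erythroid-gated cells held 6 Dkk2 UMIs in all. A macrophage cluster, 40.5% of it ungated, was at 47.05 CPM (337 of 467 cells).

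Frzb, a Frizzled-related gene best known from cartilage, was at the edge of detection in tumour-gated cells. It had 18 UMIs (0.439 CPM), 12 UMIs (0.189 CPM) and 71 UMIs (0.671 CPM). The library labelled CKO+RI stood at 3.55 times Flox+RI (1.91 to 7.20). Neutrophils had 0 Frzb UMIs in each library, but a count of 0 there allows a level above each of the 3 tumour-gated levels. The ratio is therefore not read as a difference in expression. The 3 levels were 0.471, 0.206 and 0.473 CPM with gates on thinned counts and 0.444, 0.218 and 0.511 CPM with classes from clusters, so the gap was smaller there. In cluster 13, Frzb had 1, 0 and 48 UMIs over 97, 160 and 1908 cells. These were 0.693, 0 and 0.886 CPM, with intervals that overlapped. In cluster 3 it had 0, 11 and 14 UMIs over 79, 3627 and 93 cells. The levels there were 0 CPM (0 to 3.12), 0.167 CPM (0.0831 to 0.298) and 4.12 CPM (2.25 to 6.92). Over all tumour-gated cells, 3 in each library were positive at 2000 UMIs per cell, so no difference in shares was detectable there at equal depth. In cluster 3 the share at that depth was 0.0849% (0.0175 to 0.248) of 3535 cells in Flox+RI. In the library labelled CKO+RI it was 2.17% (0.264 to 7.63) of 92 cells. Those intervals did not overlap, but they rest on 3 and 2 positive cells.

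Each comparison was then read against all genes, calling a gene past 2-fold if it had 20 UMIs or more over both libraries. With all kept cells, comparing the library labelled CKO+RI to Flox+RI, 6 of the 9 genes were measured. Of these, 2 were higher (Sfrp2 and Frzb) and 2 lower (Sfrp1 and Dkk2), where 5.50% and 12.0% of 18887 genes were higher and lower. Sfrp4 and Dkk3 lay within 2-fold, at 1.07 and 0.691 times. Sfrp1 was at 0.302 times (0.262 to 0.346), and fibroblast-gated cells made up 0.316% of the Flox+RI cells, while in the library labelled CKO+RI they made up 1.23%. In UMIs, the fibroblast class held 299408 of 86795675 in the first and 501143 of 144328896 in the second. The part of makeup in the lower level was not tested.

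In tumour-gated cells of the same comparison, 4 genes were measured. Frzb was higher and Sfrp1, Dkk2 and Dkk3 lower, where 4.73% and 9.36% of 16621 genes were higher and lower. Sfrp1 had 39 UMIs in Flox+RI against 14, and Dkk3 had 38 and 26. Neither exceeded 0.614 CPM in these cells, against over 100 CPM in fibroblasts. Neutrophils had Sfrp1 at 0.789 CPM in Flox+RI and 0.845 CPM in the other library, and Dkk3 at 0.789 CPM in Flox+RI, from 1 UMI each. The tumour-gated levels lay below these, and for Dkk3 in the other library, where neutrophils had 0 UMIs, below the 2.54 CPM that a count of 0 allows. They are therefore not read as expression, nor the calls on them as differences. The same limit holds for Frzb, at 0.189 CPM in Flox+RI and 0.671 CPM in the other library, since neutrophils had 0 of its UMIs in both. The median of the 4 was -1.31 on the log2 scale, against -0.02 over all genes tested.

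For Flox+RI against Flox+ICI, 4 genes were measured over all kept cells. Dkk2 was higher, at 2.05 times (1.97 to 2.13), and 0 were lower, where 2.52% and 14.7% of 18737 genes were higher and lower. Sfrp1, Frzb and Dkk3 lay within 2-fold, at 1.20, 0.636 and 0.653 times. In tumour-gated cells, Dkk3 was higher at 2.45 times (1.20 to 5.52, 38 and 10 UMIs) and Frzb lower at 0.431 times (0.189 to 0.945), where 3.37% and 8.32% of 16133 genes were higher and lower. Dkk3 was at 0.598 and 0.244 CPM there, and neutrophils at 0.789 and 0.516 CPM, from 1 UMI each. Single UMIs set the background only loosely, so the tumour-gated levels could not be set apart from it. Neutrophils had 0 Frzb UMIs in both libraries, which allows more than its tumour-gated levels. Neither call is therefore read as a difference. All genes tested had a median of -0.29 over all kept cells and -0.24 in tumour-gated cells on the log2 scale, so ratios in this comparison are read against a shift downward.

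The rest of the Wnt pathway was taken from 4 fixed lists in tumour-gated cells. Among the other Wnt antagonists, 8 of 16 were measured when the library labelled CKO+RI was set against Flox+RI, with 1 higher and 1 lower. Dkkl1 was 2.52 times as high, with 21 and 5 UMIs (0.925 to 8.56), and Cer1, named after its values were seen, 0.459 times (0.205 to 1.003). Bambi and Draxin stood at 1.80 and 1.5 times. In Flox+RI against Flox+ICI, 0 were higher and 4 lower, with Dkkl1 at 0.202, Draxin at 0.323, Rnf43 at 0.333 and Kremen2, outside the rule for named genes, at 0.348 times. With the libraries summed, Dkkl1, Bambi and Rnf43 were at 0.1995, 0.114 and 0.342 CPM in tumour-gated cells. Neutrophils had 0.228, 3.87 and 0.456 CPM, so the ratios of these genes are not read as differences in expression. Cer1 and Kremen2, at 0.1948 and 0.1235 CPM, had 0 in neutrophils and share the limit given for Frzb. The median log2 ratio of this list was -0.19 in the first comparison and -1.02 in the second, against -0.02 and -0.24 over all genes. Over all genes tested in these cells, 4.73% were higher and 9.36% lower in the first comparison, and 3.37% and 8.32% in the second. RNF43 is a ligase that removes Frizzled receptors from the cell surface.

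Of the Wnt ligands, 11 of 19 were measured in tumour-gated cells. In the library labelled CKO+RI, 0 were past 2-fold higher than in Flox+RI and 2 lower, Wnt4 at 0.467 (0.366 to 0.595) and Wnt7b at 0.498 times (0.478 to 0.518), with Wnt10a just inside at 0.509. In Flox+RI against Flox+ICI, Wnt10a was higher at 2.02 times and Wnt1 lower at 0.196 (10 and 33 UMIs), with Wnt7b just inside at 1.99. With the libraries summed, Wnt4 and Wnt1 were at 1.93 and 0.214 CPM in tumour-gated cells. Neutrophils had 10.25 and 0.456 CPM, so the calls on these genes are not read as differences in expression. The median log2 ratios were -0.53 and 0.10, against -0.02 and -0.24 over all genes. Of all genes, 4.73% were higher and 9.36% lower in the first comparison and 3.37% and 8.32% in the second, so the 1 lower ligand of 11 in the second is near that share.

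Of 18 receptors, 12 were measured in the first comparison. Fzd2, a Wnt receptor, had a ratio of 7.38 (3.88 to 15.8, 123 and 10 UMIs), and 0 were lower. Fzd9 and Lgr4 stood at 0.632 and 0.665 times. In the second comparison, 13 were measured, with 0 higher and 3 lower, Fzd2 at 0.404, Fzd4 at 0.478 and Lgr5 at 0.348 times. With the libraries summed, Fzd4 was at 1.02 CPM in tumour-gated cells against 1.14 CPM in neutrophils, so its call is not read as a difference. Fzd2 and Lgr5 had 0 in neutrophils. Lgr5, at 0.1235 CPM with the libraries summed, shares the limit given for Frzb. Fzd2, at 0.390, 0.157 and 1.16 CPM, shares it library by library. With the libraries summed, Fzd2 was at 0.708 CPM, just above what a count of 0 in neutrophils allows. Median log2 ratios were -0.15 and -0.16, against -0.02 and -0.24 over all genes, of which 4.73% and 9.36% were higher and lower in the first comparison and 3.37% and 8.32% in the second.

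The co-receptors that DKK1 and DKK2 bind were measured in the same cells. Lrp5 stood at 21.2, 22.2 and 25.1 CPM and Lrp6 at 38.2, 34.8 and 30.5 CPM, all within 1.5-fold of each other. Both were thus present in each library beside Dkk2.

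Of 15 Wnt target genes, 10 were measured in each comparison. Nkd1, a feedback inhibitor of the pathway, was higher in the library labelled CKO+RI at 2.02 times (1.53 to 2.70), and 0 were lower. Tcf7 stood at 0.556 and Ccn4 at 0.633 times. In Flox+RI against Flox+ICI, Ccn4 was higher at 2.99 times (2.14 to 4.26), and Rnf43 and Lgr5, which are also in other lists, were lower. With the libraries summed, Nkd1, Tcf7 and Rnf43 were at 1.67, 1.04 and 0.342 CPM in tumour-gated cells. Neutrophils had 2.28, 1.59 and 0.456 CPM, so the ratios of these genes are not read as differences in expression. Axin2, the most general target, named after its values were seen, was at 1.35 (0.882 to 2.10) and 1.33 times (0.713 to 2.59). Over all genes, 4.73% were higher and 9.36% lower in the first comparison, and 3.37% and 8.32% in the second, so the counts of 1 and 0 of 10 are near that share. The median log2 ratios of the list were 0.01 and -0.46, against -0.02 and -0.24.

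The cell classes also differed in the rest of the pathway, with all libraries summed. Fibroblasts had 114 CPM of Trabd2b, a membrane protease that cuts Wnt ligands, and 377 CPM of Ror1, a receptor of Wnt5a. Mesothelial cells had 106 CPM of Trabd2b and 246 CPM of Wnt4. Endothelial cells had 164 CPM of Fzd4 and T cells 224 CPM of Lef1, a transcription factor that carries Wnt signals to DNA.

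Genes with a profile most like that of a member were taken from 29 class and library profiles of at least 50 cells in 12 classes, over 17883 genes, by Pearson's r of log2(CPM + 10). Kcnt2 (0.996), Gm9913 (0.993) and Brinp1 (0.993) were most like Sfrp1, and Dpep1 (0.997), C1qtnf7 (0.997) and Cdh11 (0.996) most like Dkk3. Rhbdl2 (0.893), Acp1 (0.879) and Hoxc6 (0.876) were most like Dkk2. For Sfrp2 (Syn2, 0.918) and Frzb (Ceacam2, 0.928) the profiles held 56 and 133 UMIs over all kept cells. Profiles of 1 library share its depth and free RNA. Fibroblasts entered with 2 profiles, since Flox+RI had 37 cells, and mesothelial cells with 0.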

How the data were processed

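The values are raw UMI counts of each gene in each barcode, deposited as whole numbers and made by the authors using Cell Ranger, version 6.1.2 per the file headers. The submitters' processing notes name Cell Ranger 6.0, Seurat 5.0.3 and the builds mm10 and GRCm38. The authors' annotation is not stated in the labels. Every barcode held at least 500 UMIs. The groups are the sample titles.

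Cells needed 200 genes or more and no more than 20% mitochondrial UMIs, and the highest scrublet scores (scanpy 1.11.5) were removed at 0.8% per 1000 barcodes, which took out 915, 1367 and 653 barcodes. A cell took the class with the most of its 10 markers detected, if at least 3, with a lead of 2 over other lineages and 1 within its lineage, and for tumour 0 Xist UMIs. Clusters (Leiden, resolution 1.0, without the 9 genes and without correction between libraries) served as an alternative. Intervals are exact at 95% (Poisson for levels, Clopper-Pearson for shares, conditional binomial for ratios). A count of 0 allows 3 counts. Cells are not replicates, so no test was run. The ratio intervals and calls were tested on simulated Poisson counts. That simulation could not check them for counts clumped in a few cells, such as those of Dkk2 and Sfrp1. The 9 genes are always named, and from the other lists those with at least 50 UMIs that are among the 3 of their list with the largest ratio, or the highest in a class. Coordinates come from GENCODE M21. The members and lists were chosen with earlier results of these data known. Alternatives are given in the closing section.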

Additional observations from a re-analysis of the deposited data

How the results depend on the processing

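No paired analysis was possible because each group had 1 library. With levels averaged over cells in place of summed UMIs, the Sfrp2 ratio over all kept cells (library labelled CKO+RI to Flox+RI) was 16.2. The Dkk2 ratio in tumour-gated cells of this comparison was 0.345 by that mean and 0.229 with classes from clusters, which leave out cluster 13. For Flox+RI to Flox+ICI it was 2.02 by the mean over cells, 1.94 with clusters and 1.67 with gates on thinned counts. The number of members past 2-fold in that comparison was 3 without doublet removal, when Sfrp2 (24 UMIs in Flox+ICI, 12 in Flox+RI) and Wif1 (18 and 3) were lower in Flox+RI and reached the minimum of 20 UMIs, and 2 by the mean over cells, against 1. The Sfrp2 ratio in fibroblast-gated cells of the first comparison was 0.598, from 1 UMI in each library. With 37 cells in Flox+RI, this ratio is below the limits set for cells and UMIs. It changed direction, to 3.17 without doublet removal, 1.57 with gates on thinned counts and 4.25 with clusters, all inside its counting interval. The cause was not tested unless given. Of 171 alternatives for single levels and shares, 144 stayed within the counting interval and 27 moved outside it. Clusters gave no mesothelial or airway class, so those levels have no value there, and the cluster named fibroblast had the highest Sfrp2 level of all clusters. Depth limits Sfrp2, Sfrp4, Sfrp5, Frzb and Wif1, which had 1 to 133 kept UMIs each.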
